A study of Mus musculus with 11 samples.

Results

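In all, 9 genes that regulate heat production or the making of mitochondria were followed in gonadal white adipose tissue (WAT): Ppargc1a, Ppargc1b, Esrra, Prdm16, Kcnk3, Cidea, Ucp2, Tfam and Nrf1. They were taken by name, and 8 of the 9 were among the 12787 genes with values. Ppargc1a was not analysed here. The tissue came from 11 male C57Bl6/J mice on a 60% high fat diet (HFD), 1 library per mouse. The 5 mice of the HFD group received this diet as vehicle, and the 6 mice of the HFD + IMC group received it with 0.06% (w/w) iodomethylcholine, over 20 weeks. Iodomethylcholine (IMC) inhibits the gut microbial choline trimethylamine lyase CutC. No mouse on a low fat diet is among these samples, and one further control mouse was dropped by the authors at quality control. The labels give neither age nor cage, and mice of one condition shared cages, so p-values measure the spread between these mice.

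PGC-1α (Ppargc1a) and PGC-1β (Ppargc1b) are coactivators with no DNA-binding domain of their own. They work through factors such as the estrogen-related receptor ERRα (Esrra) and nuclear respiratory factor NRF1 (Nrf1), which switch on nuclear genes for the respiratory chain. One of those genes is Tfam, whose protein packages, transcribes and helps copy mitochondrial DNA. PRDM16 directs precursor cells and adipocytes toward the brown and beige fate, in which UCP1 lets protons leak across the inner mitochondrial membrane and heat is released. Kcnk3 and Cidea are widely used as marks of brown and beige adipocytes. Kcnk3 encodes TASK-1, a two-pore-domain potassium leak channel that limits adrenergic signalling in adipocytes, and Cidea encodes a lipid droplet protein. UCP2, unlike UCP1, is found in macrophages and many other cells and is not regarded as a heat-producing uncoupler. Gonadal WAT holds few brown or beige adipocytes in mice kept at usual room temperature.

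The promoters of 4 genes are shown because their genes either changed (Prdm16, Ucp2) or hold a motif of the respiratory gene program (Esrra, Tfam). Each is the 250 bases before the RefSeq start site on GRCm38.p6, written 5′ to 3′ on the strand of the gene. Capitals mark the NRF1 motif GCATGCGC in Esrra, the ETS core CCGGAAG in Tfam, and the Sp1 core GGGCGG on either strand in all 4. The ETS core is the kind of sequence bound by GABP, also called nuclear respiratory factor 2.
Prdm16, chr4:154636874-154637123, minus strand: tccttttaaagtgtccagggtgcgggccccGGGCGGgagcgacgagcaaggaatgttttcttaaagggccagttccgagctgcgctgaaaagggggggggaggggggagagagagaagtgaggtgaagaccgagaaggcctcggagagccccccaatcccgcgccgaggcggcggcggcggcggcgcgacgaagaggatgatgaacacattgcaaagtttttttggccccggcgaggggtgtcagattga
Ucp2, chr7:100493108-100493357, plus strand: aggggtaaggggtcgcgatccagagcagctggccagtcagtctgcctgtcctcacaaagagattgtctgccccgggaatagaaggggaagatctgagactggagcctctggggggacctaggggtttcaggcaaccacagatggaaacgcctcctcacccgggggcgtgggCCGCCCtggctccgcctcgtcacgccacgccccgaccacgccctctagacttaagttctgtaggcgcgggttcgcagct
Esrra, chr19:6921809-6922058, minus strand: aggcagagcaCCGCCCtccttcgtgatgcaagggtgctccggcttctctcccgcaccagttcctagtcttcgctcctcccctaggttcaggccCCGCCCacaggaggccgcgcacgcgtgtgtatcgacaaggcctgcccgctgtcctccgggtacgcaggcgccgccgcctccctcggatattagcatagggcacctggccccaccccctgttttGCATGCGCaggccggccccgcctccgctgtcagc
Tfam, chr10:71238045-71238294, minus strand: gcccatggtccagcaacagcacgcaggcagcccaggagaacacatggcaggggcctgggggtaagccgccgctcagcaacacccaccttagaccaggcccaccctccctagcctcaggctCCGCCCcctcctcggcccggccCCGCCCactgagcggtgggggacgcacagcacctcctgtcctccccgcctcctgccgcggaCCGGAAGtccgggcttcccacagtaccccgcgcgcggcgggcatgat

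Both strands were searched for 7 motifs in 12440 such promoters of 9749 of the genes with values. The NRF1 motif was in 4.17% of these promoters, the ETS core in 13% and the Sp1 core in 56.6%. Sp1 cores were found in the promoters of Prdm16, Ucp2, Esrra, Tfam and Nrf1. No searched promoter of these regulators had the ERR element TCAAGGTCA, the cAMP response element TGACGTCA, the E-box CACGTG or the ROR element TAGGTCA. Those motifs were in 0.241%, 2.5%, 8.19% and 1.59% of all promoters searched. These are matches of letters only. A promoter was held for 6 of the 9 genes, and not for Ppargc1b, Kcnk3 or Cidea. That of Ppargc1a was held but not searched, so nothing is said of its motifs.

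Of the 8 regulators with values, 3 rose with IMC (Kcnk3, Prdm16 and Cidea), 1 fell (Ucp2), and 4 did not pass the test (Ppargc1b, Esrra, Nrf1 and Tfam). The test was limma on the deposited log2 CPM, the reads of a gene relative to the size of the library, with Benjamini-Hochberg adjustment over all 12787 genes and a threshold of 0.05. Over all genes the same test called 40.9%, with 20% higher and 21% lower, so 4 calls among 8 genes is close to the background. No overlap between the groups was seen for 23.1% of all genes, and of the regulators for Kcnk3 alone. The median log2 fold change was 0.099 over the 8 regulators and −0.026 over all genes. In whole tissue, fewer cells of a type and less RNA per cell cannot be told apart.

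**Figure D1:**
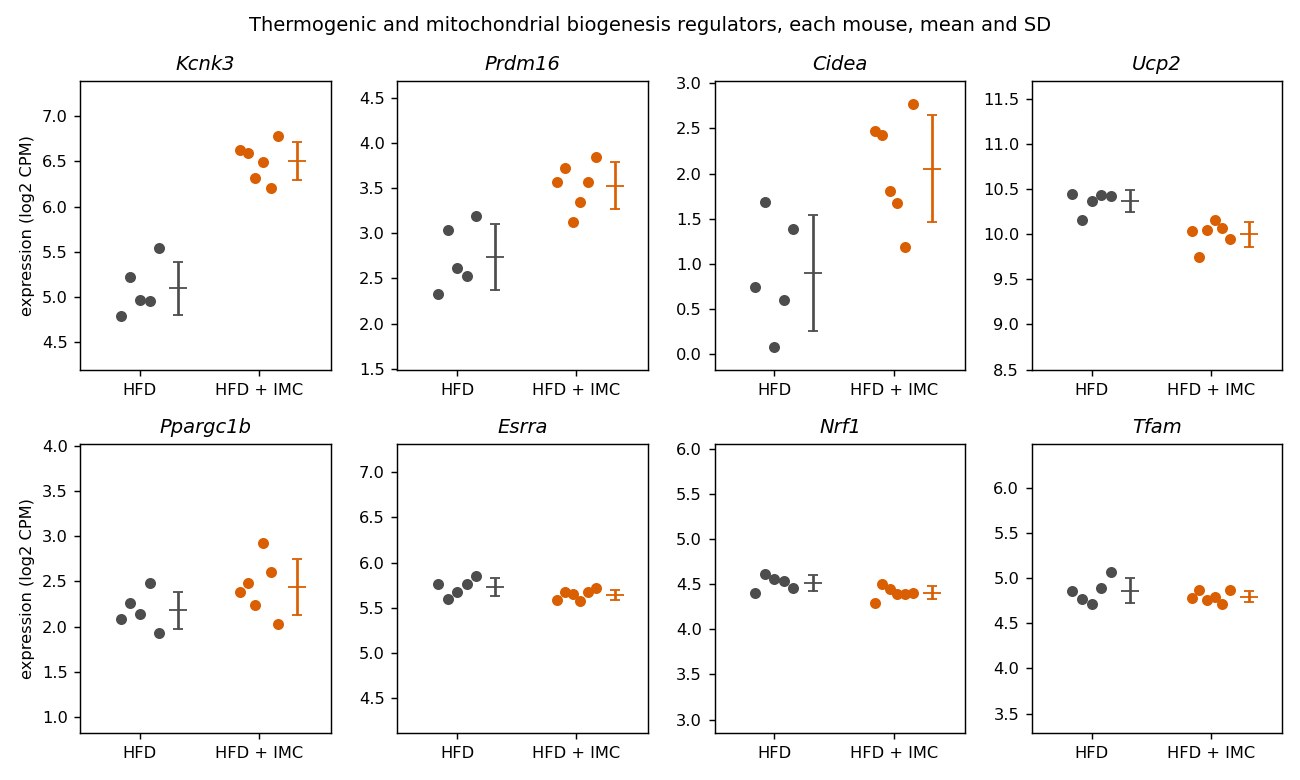
Expression of the 8 regulators in each mouse (y axis, log2 CPM, every panel spanning the same range) in the HFD group (grey, n = 5) and the HFD + IMC group (orange, n = 6), with the mean and SD beside the points. The groups are apart for Kcnk3, touch for Prdm16 and Ucp2, overlap for Cidea, and overlap widely for Tfam.

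Reads counted in the 12787 genes ranged from 22320022 to 23635249 per HFD mouse and from 22619505 to 25155366 per IMC-treated mouse. All 12 adipocyte markers were higher with IMC, with log2 fold changes from 0.638 to 1.783 and a median of 0.90, and their summed level lay between 12371 and 18091 CPM in HFD mice and between 25174 and 30338 CPM in IMC-treated mice. Of 13 macrophage markers, 10 were lower and 0 higher, with a median of −0.575 and summed levels of 9770 to 12468 CPM against 5801 to 8363 CPM. The tissue label was met by these adipocyte markers, and none of 7 epididymis markers was among the genes with values. Of other cell types, 1 of 6 endothelial markers was higher (Cdh5, 0.41), 1 of 4 smooth muscle markers was higher (Acta2, 0.71) and 1 of 5 mesothelial markers was lower (Wt1, −0.57). Without HFD replicate 2, 4 endothelial markers were higher, and without HFD replicate 3 or IMC-treated replicate 6, 1 smooth muscle marker (Des) was lower.

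Kcnk3 showed the clearest change of the regulators. Its levels in HFD replicates 1 to 5 were 4.79, 5.22, 4.97, 4.95 and 5.55 log2 CPM, from 616 to 1097 reads. In the 6 IMC-treated mice they ran from 6.21 through a median of 6.54 to 6.79 log2 CPM, from 1783 to 2680 reads. Every IMC-treated mouse was above every HFD mouse, and the groups were separated by 0.66 on the log2 scale. The log2 fold change was 1.41 ± 0.13 (SE), a 2.65-fold rise with a 95% interval of 1.13 to 1.69 on the log2 scale (limma, adjusted p = 2.67e-05). A two-sided exact permutation test over the mice gave p = 0.00216, the smallest that 5 against 6 mice allow. The change ranked 22 by size among all 12787 genes.

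Kcnk3 spans chr5:30588170-30625271 on the plus strand (GRCm38), and the noncoding gene Gm9899 overlaps it on the minus strand. Gm9899 was also higher, at 0.58 ± 0.27 log2 CPM (SD, n = 5) in HFD mice and 1.73 ± 0.27 (SD, n = 6) with IMC, from 30 to 104 reads per mouse. The libraries were made with a directional kit, but whether the reads were counted by strand is not stated. Reads of these overlapping genes may thus be shared between them. With at most 104 reads, Gm9899 was far below the reads of Kcnk3.

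Prdm16 also rose. HFD replicates 1 to 5 had 2.32, 3.04, 2.62, 2.53 and 3.19 log2 CPM, from 111 to 214 reads. The IMC-treated mice ran from 3.13 through 3.57 to 3.85 log2 CPM, from 195 to 349 reads. The groups touched, since HFD replicate 5 was above the lowest IMC-treated mouse by 0.062. This was a log2 fold change of 0.79 ± 0.16 (SE), or 1.73-fold, with a 95% interval of 0.43 to 1.14 (limma, adjusted p = 0.00226, exact permutation p = 0.00649). Prdm16 covers chr4:154316125-154636873 on the minus strand.

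The PRDM family gives a comparison within one class of zinc finger and histone methyltransferase-like proteins. Of 15 listed members 11 had values, and Prdm16 was the only one called in either direction. Prdm9, best known for placing meiotic recombination, had a log2 fold change of 0.29 (adjusted p = 0.0526), and Prdm1, a repressor in lymphocytes and other cells, had −0.41 (adjusted p = 0.0752). Leaving out HFD replicate 2 or 4 or IMC-treated replicate 6 gave 2 higher genes in the family, and leaving out HFD replicate 5 or IMC-treated replicate 4 gave 1 lower.

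Cidea was the most variable regulator and the one with the fewest reads. In HFD replicates 1 to 5 it stood at 0.745, 1.69, 0.084, 0.61 and 1.38 log2 CPM, from 25 to 75 reads. In the IMC-treated mice it ran from 1.19 through 2.12 to 2.77 log2 CPM, from 56 to 165 reads. The groups overlapped, and HFD replicates 2 and 5 were above the lowest IMC-treated mouse. The log2 fold change was 1.155 ± 0.32 (SE), or 2.23-fold, and its 95% interval of 0.46 to 1.845 was the widest of the 8 (limma, adjusted p = 0.0118, exact permutation p = 0.0216). Its spread within groups was larger than that of 99.7% of genes. The gene lies at chr18:67343604-67367785 on the plus strand, overlapped by the noncoding gene B430212C06Rik, which had 118 to 261 reads per mouse, more than Cidea, and itself rose by 0.637 on the log2 scale (adjusted p = 0.000555).

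Cidec, the relative of Cidea that enlarges the single droplet of white adipocytes and is one of the adipocyte markers, rose from 10.84 ± 0.25 to 11.71 ± 0.07 log2 CPM (SD, n = 5 and 6), a log2 fold change of 0.87 (adjusted p = 7.64e-05). Both CIDE genes with values were thus higher. Cideb was not analysed here.

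Kcnk3, Prdm16 and Cidea shared an order among the mice. HFD replicates 2 and 5 were the top pair of their group for all 3 genes, and the same pair had the highest adipocyte marker mean, 9.72 in both against 9.11 to 9.30 log2 CPM in the other HFD mice. Among IMC-treated mice, replicates 1, 2 and 6 were highest for Kcnk3 and Cidea and for the adipocyte marker mean, and had the lowest macrophage marker means. Prdm16 did not follow this fully, with replicate 6 highest and replicates 1 and 5 level at 3.57.

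**Figure D2:**
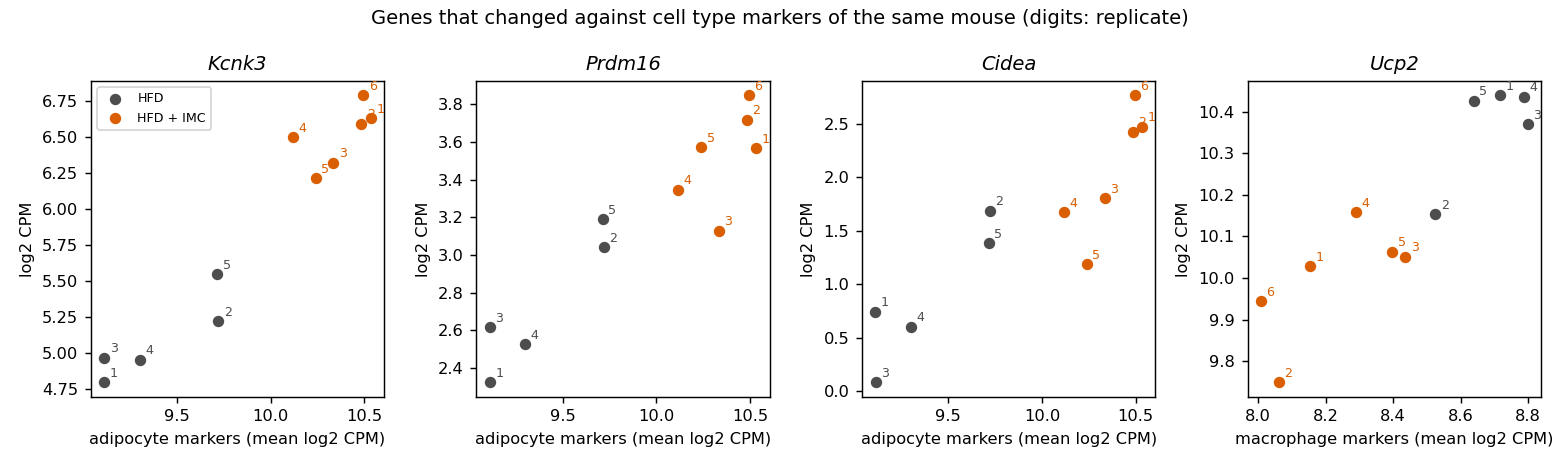
Levels of Kcnk3, Prdm16 and Cidea (y axis, log2 CPM) against the mean of 12 adipocyte markers in the same mouse (x axis, log2 CPM), and Ucp2 against the mean of 13 macrophage markers. Grey points are HFD mice, orange points are HFD + IMC mice, digits are replicate numbers, and HFD replicates 2 and 5 sit above the other HFD mice in the first 3 panels.

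The same genes were therefore set against the adipocyte markers, as log2 CPM less the marker mean of the same mouse. Relative to these markers Kcnk3 was still higher with IMC by 0.43 on the log2 scale, from −4.30 ± 0.14 to −3.86 ± 0.17 (SD, n = 5 and 6), and the groups did not overlap (two-sided exact permutation p = 0.00216). The relative level of Prdm16 differed by −0.19 (exact permutation p = 0.132) and that of Cidea by 0.18 (exact permutation p = 0.494), with overlap in both. The increase of Kcnk3 was thus larger than the mean of the markers but within their range, since Cfd alone rose by 1.783. For Ppargc1b the relative difference was −0.71 (exact permutation p = 0.0281), and for Esrra, Tfam and Nrf1 it lay between −1.08 and −1.04. Against the macrophage markers these 4 genes went the other way, with differences of 0.732 for Ppargc1b and 0.385 for Esrra, both without overlap (exact permutation p = 0.00433 in each), 0.405 for Tfam (exact permutation p = 0.0173) and 0.361 for Nrf1 (exact permutation p = 0.0152). Kcnk3, Prdm16 and Cidea were higher against the macrophage markers by 1.878, 1.258 and 1.624. The comparisons with both sets of markers made 16 in all and were not adjusted. They were chosen after the values were seen.

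Ucp2 was by far the most abundant of the regulators and the only one that fell. HFD replicates 1 to 5 had 10.44, 10.15, 10.37, 10.44 and 10.43 log2 CPM, and the IMC-treated mice ran from 9.75 through 10.04 to 10.16. Replicate 2 was the lowest HFD mouse and the highest IMC-treated mouse exceeded it by 0.006, so the groups touched. Its log2 fold change was −0.37 ± 0.08 (SE), 1.29-fold lower, with a 95% interval of −0.54 to −0.19 (limma, adjusted p = 0.00327, exact permutation p = 0.00433). Each mouse had at least 19576 Ucp2 reads, so counting error is small beside the spread between mice. Relative to the macrophage markers the difference was 0.10, from 1.67 ± 0.08 to 1.775 ± 0.13 (SD, n = 5 and 6), with overlap (exact permutation p = 0.167). Relative to the adipocyte markers it was −1.341, from 0.973 ± 0.386 to −0.368 ± 0.282 (SD, n = 5 and 6), without overlap (exact permutation p = 0.00216).

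Ucp2 is at chr7:100493337-100502020 on the plus strand and overlaps Dnajb13 on the minus strand. Dnajb13 had 117 to 316 reads per mouse and moved the other way, with a log2 fold change of 0.61 (adjusted p = 0.0326). Of the other uncoupling and adenine nucleotide carriers, Ucp3, found mainly in skeletal muscle and brown fat, averaged 3.88 ± 0.30 log2 CPM (SD, n = 5) in HFD mice and 4.75 ± 0.09 (SD, n = 6) with IMC, a log2 fold change of 0.87 (adjusted p = 0.00011). Slc25a5, an ADP/ATP carrier of the inner membrane, rose by 0.14 (adjusted p = 0.0353), a call that was lost under 9 of 18 other settings, among them leaving out HFD replicates 1, 2 or 3 or IMC-treated replicates 1, 2, 4 or 6. The other 4 of the 7 members with values did not pass the test, and Ucp1 was not analysed here. Some skeletal muscle markers moved in the same direction as Ucp3. Of 13 such markers 5 had values and 3 were higher, Myh2 by 3.025, Acta1 by 1.235 and Pvalb by 0.63. Tnni2 and Actn3 did not pass the test, with log2 fold changes of −0.265 and −0.118 (limma, adjusted p = 0.343 and 0.761). The summed level of the 5 was 20 to 29.1 CPM in HFD mice and 42.2 to 71.7 CPM in IMC-treated mice, and its part in the rise of Ucp3 was not tested.

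The other potassium channels of the Kcnk3 class did not share one direction. Of 14 two-pore-domain channels 4 had values, and all 4 passed the test. Kcnk2 (TREK-1), a mechanically gated channel, was higher by 0.39 (adjusted p = 0.0355), while Kcnk13 fell by 0.67 (adjusted p = 8.55e-05) and Kcnk6 fell by 0.39 (adjusted p = 0.00158). Kcnk13 is known from microglia. The call of Kcnk2 was lost under 7 of 18 other settings, including the fits without any one of HFD replicates 1, 3, 4 or 5 and of IMC-treated replicates 1 or 2.

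The coactivator and its receptor partner showed no change that passed the test. Ppargc1b had 2.08, 2.27, 2.14, 2.48 and 1.93 log2 CPM in HFD replicates 1 to 5, and 2.03 through 2.43 to 2.92 in IMC-treated mice. The groups overlapped widely. The log2 fold change of 0.26 had a 95% interval of −0.066 to 0.59 (limma, adjusted p = 0.188). With 89 to 188 reads per mouse it was among the less well measured regulators. Ppargc1b lies at chr18:61298136-61400431 on the minus strand.

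Esrra was much more evenly expressed. Its HFD levels were 5.76, 5.59, 5.68, 5.76 and 5.86 log2 CPM, and those of IMC-treated mice ran from 5.57 through 5.66 to 5.72, from 1097 to 1360 reads over both groups. Its log2 fold change was −0.084 with a 95% interval of −0.196 to 0.028 (limma, adjusted p = 0.216). Esrra, at chr19:6910977-6921813 on the minus strand, is overlapped by Trmt112, which had 91 to 141 reads per mouse and a log2 fold change of −0.12 (adjusted p = 0.512).

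Nrf1 and Tfam, the regulators closest to the respiratory chain genes and mitochondrial DNA, also did not pass. Nrf1 stood at 4.40, 4.61, 4.56, 4.53 and 4.46 log2 CPM in HFD replicates 1 to 5 and between 4.29 and 4.50 in IMC-treated mice, with a median of 4.40. Its log2 fold change was −0.11 (limma, adjusted p = 0.147), although the exact permutation test of this gene alone gave p = 0.0411 before any adjustment. The 95% interval ran from −0.23 to 0.014.

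Tfam stood at 4.86, 4.76, 4.71, 4.89 and 5.07 log2 CPM in HFD replicates and between 4.71 and 4.87 in IMC-treated mice. HFD replicate 5 was the highest of all 11 mice, and the groups overlapped widely. The log2 fold change was −0.065 with a 95% interval of −0.20 to 0.074 (limma, adjusted p = 0.446). Tfam is at chr10:71225464-71238280 on the minus strand and overlaps no other annotated gene, and Nrf1 is at chr6:30047988-30153458 on the plus strand. For Esrra, Nrf1 and Tfam the intervals reach no further than −0.232 below and 0.074 above 0 on the log2 scale.

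**Figure D3:**
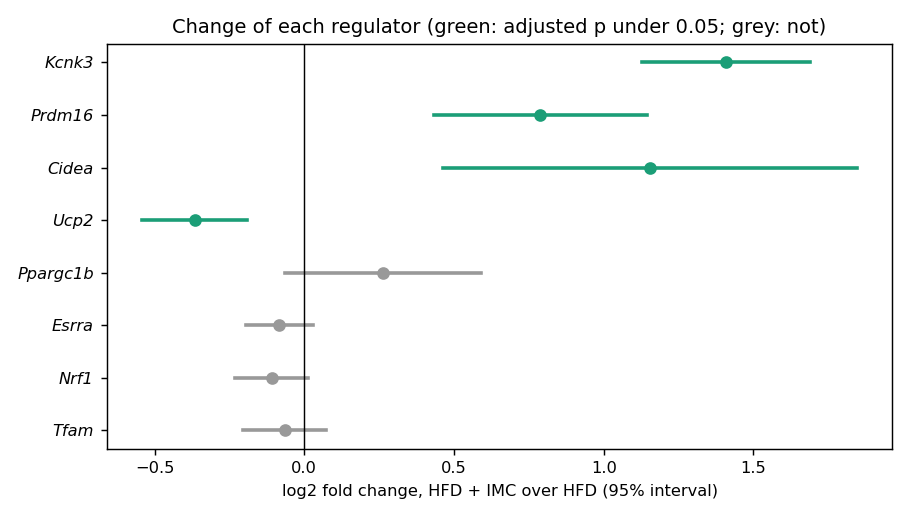
Log2 fold change of each regulator (x axis, HFD + IMC over HFD) with its 95% interval from limma, in green where the adjusted p is under 0.05 and in grey otherwise. Kcnk3, Prdm16 and Cidea lie to the right of 0, Ucp2 to the left, and the intervals of the other 4 include 0.

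The regulators span a wide range of levels when corrected for length, as log2 CPM per kb of the longest protein-coding transcript of each gene. In HFD mice Ucp2 was highest at 8.37 ± 0.12, followed by Esrra at 4.57 ± 0.10, Kcnk3 at 3.17 ± 0.29, Tfam at 2.80 ± 0.14, Nrf1 at 2.67 ± 0.09, Cidea at 0.74 ± 0.64, Ppargc1b at 0.31 ± 0.21 and Prdm16 at −0.365 ± 0.36 (SD, n = 5). Tfam and Nrf1 differed by less than the SD of Tfam, and Cidea and Ppargc1b by less than the SD of Cidea. With IMC, Kcnk3 at 4.57 ± 0.21 came level with Esrra at 4.48 ± 0.06, and Prdm16 at 0.42 ± 0.26 came within the spread of Ppargc1b at 0.57 ± 0.31 (SD, n = 6). By this measure over both groups Ucp2 ranked 136 and Prdm16 ranked 11103 of 12017 genes with a length.

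Genes that mark brown and beige adipocytes were examined next, from a list of 24, of which 14 had values. Of these, 5 were higher, 1 was lower and 8 did not pass, with a median log2 fold change of 0.16. The share called was 42.9%, close to the 40.9% over all genes, whose median was −0.026. Where given below, the share called in a list is to be read beside the same 40.9%. Besides Cidea, the higher genes were Ppara (0.99, adjusted p = 0.00142), a nuclear receptor that drives fatty acid oxidation, Otop1 (0.71, adjusted p = 0.000684), a proton channel, Hspb7 (0.43, adjusted p = 0.0105), a small heat shock protein, and Cox8b (0.40, adjusted p = 0.0147), a subunit of cytochrome c oxidase. Epsti1, an interferon-inducible gene, was lower by 0.50. Of the 6 genes most used to define brown adipocytes, Ucp1, Zic1 and Lhx8 were not analysed here. Cox8b was higher, Elovl3, a fatty acid elongase, had a log2 fold change of 0.43 (adjusted p = 0.159), and Dio2, the deiodinase that activates thyroid hormone, had −0.35 (adjusted p = 0.178). Without IMC-treated replicate 5, Elovl3 also passed and 2 of the defining genes were higher. The summed level of Cox8b, Elovl3 and Dio2 was 10.3 to 14.6 CPM in HFD mice and 12.8 to 16.6 CPM in IMC-treated mice. That of the 12 adipocyte markers was 12371 to 30338 CPM over both groups, and Ucp1 is in neither sum.

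Heat can also be made without UCP1, for instance by cycles that spend ATP on creatine, calcium or lipid turnover. Of 14 genes linked to such heat 10 had values, 6 were higher and 3 lower (90% called), with a median of 0.29. Atp2a2, a calcium pump, did not pass, with a log2 fold change of 0.134 (limma, adjusted p = 0.0973). The highest change was that of Ryr2, a calcium release channel, at 1.29 (adjusted p = 3.49e-05), followed by Pm20d1, which makes N-acyl amino acids, at 1.16 (adjusted p = 0.000282), Gyk, glycerol kinase, at 0.99 (adjusted p = 0.000357), and Alpl, a phosphatase of the creatine cycle, at 0.77 (adjusted p = 0.00717). The genes of creatine supply and use had no common direction. Gamt, which completes creatine synthesis, rose by 0.305 (adjusted p = 0.00546). Ckb, the creatine kinase of the cycle, fell by 0.637, Slc6a8, the creatine transporter, fell by 0.405, and Gatm, which catalyses the first step of creatine synthesis, fell by 0.36. Gatm lost its call without HFD replicate 3 or 4 or IMC-treated replicate 5 or 6.

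Adrenergic signals reach the thermogenic genes through cyclic AMP. Of 11 genes of this route 10 had values and 5 were higher. Adrb3, the receptor of mature adipocytes, rose by 0.83 (adjusted p = 0.0176). In the same list Adrb1, Nr4a1, Nr4a2, Nr4a3 and Sik1 did not pass (limma, adjusted p from 0.18 to 0.832). Their log2 fold changes were 0.468, −0.307, 0.112, 0.056 and −0.075. The smallest p belonged to Prkar2b (0.75, adjusted p = 3.5e-05), Pde3b (0.655, adjusted p = 6e-05) and Prkaca (0.39, adjusted p = 0.0007), which encode a regulatory subunit of protein kinase A, a cyclic AMP phosphodiesterase and the catalytic subunit of the kinase. These genes, like the brown fat genes and those of heat without UCP1, moved in mice whose adipocyte markers rose by a median of 0.90. The part of that rise in the counts was not tested.

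The partners of PRDM16 had no common direction. Of 20 genes 18 had values, 3 were higher and 4 lower (38.9% called), with a median of −0.14. Bmpr1a, a receptor for bone morphogenetic proteins, rose by 0.60 (adjusted p = 3.64e-05), Rb1 rose by 0.34, and Fgf21, a hormone that induces thermogenic genes, rose by 0.92 on 12 to 76 reads per mouse. Hlx, a homeobox factor, fell by 0.75, Plac8 fell by 0.68, Foxp1, a repressor of the brown program, fell by 0.325, and the corepressor Ctbp1 fell by 0.16.

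Among 24 nuclear receptors and cofactors that work with PGC-1 proteins, 21 had values. Of these, 9 were higher and 1 lower (47.6% called), with a median of 0.15. Ppara is one of them. Pparg, the master regulator of adipocyte differentiation, rose by 0.70 (adjusted p = 0.000292), Thrb, a thyroid hormone receptor, by 0.56 (adjusted p = 0.000462), and the coactivator Ncoa1 by 0.26 (adjusted p = 0.000408), while Rxrb fell by 0.13. The call of Rxrb was lost under 7 of 18 other settings, and leaving out any one of HFD replicates 1, 2 or 3 or of IMC-treated replicates 1 or 2 left 0 lower genes, and leaving out HFD replicate 5 or IMC-treated replicate 5 left 2. All 24 genes that act on PGC-1α itself had values, 7 higher and 5 lower (50% called), with a median of −0.014. Prkaa2, a catalytic subunit of AMP-activated kinase, rose by 0.85 and Nrip1, the corepressor RIP140 that silences energy-spending genes in white fat, rose by 0.70. Tfeb, a regulator of lysosomes and autophagy, fell by 0.42.

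The list of nuclear respiratory factors and other transcription regulators held 12 genes, all with values. Of these, 1 was higher and 4 lower (41.7% called), with a median of −0.057. Nrf1 and the GABP genes Gabpa, Gabpb1 and Gabpb2 did not pass, and the genes called were other regulators. The log2 fold changes of these GABP genes were 0.008, −0.084 and −0.025. Nfe2l1, which controls proteasome genes, rose by 0.50 (adjusted p = 3.5e-05), while Myc fell by 0.44, Creb1 by 0.23, Sp1 by 0.21 and Nfe2l2, the regulator of antioxidant genes, by 0.198. Of 26 genes that maintain and express mitochondrial DNA, 25 had values and 20 of them did not pass (20% called). Lonp1, the matrix protease, rose by 0.38 and Mterf2, a mitochondrial transcription regulator, by 0.71. Rnaseh1 fell by 0.29, Tk2, a mitochondrial thymidine kinase, by 0.19, and Dguok, which serves the same nucleotide pool, by 0.146. The median was 0.001. The call of Dguok was lost under 7 of 18 other settings, all of them fits without 1 mouse (HFD replicate 1, 4 or 5 or IMC-treated replicate 1, 2, 5 or 6). That of Nfe2l2 was lost under 6, without the variance trend and without any one of HFD replicates 1, 2 or 3 or of IMC-treated replicates 2 or 6, and that of Sp1 without HFD replicate 3 or 4. In the list of respiratory factors and other regulators, 2 genes were higher without IMC-treated replicate 1 or 6. In the same list 2 were lower without HFD replicate 3.

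Known targets of ERRα and NRF1 were higher or did not pass. Of 27 respiratory chain and oxidation genes, all with values, 14 were higher, 0 were lower and 13 did not pass. This was 51.9% called, with a median of 0.175. No member was lower under any of 18 other settings, where 11 to 16 were higher. Acadm, which starts the oxidation of medium-chain fatty acids, rose from 7.92 ± 0.16 to 8.51 ± 0.09 log2 CPM (SD, n = 5 and 6), a log2 fold change of 0.59 (adjusted p = 7.42e-05). Idh3a, of the citric acid cycle, rose by 0.50 (adjusted p = 0.000177), and Sdha, a subunit of complex II, by 0.37 (adjusted p = 0.000231). These changes were smaller than the median of 0.90 of the adipocyte markers in the same mice. Of 12 genes of mitochondrial fusion and fission, 4 were higher and 1 lower (41.7% called), with a median of 0.055. Mfn2, a fusion protein of the outer membrane, rose by 0.62 (adjusted p = 3.49e-05), Opa1, which fuses the inner membrane, by 0.225, and Dnm1l, which drives fission, by 0.14, while Mff, a receptor for Dnm1l, fell by 0.14. The call of Mff was lost without HFD replicate 1 or 3 or IMC-treated replicate 4, no gene was lower without either of the former, and 2 of the 12 genes were higher without HFD replicate 3, where Dnm1l did not pass.

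**Figure D4:**
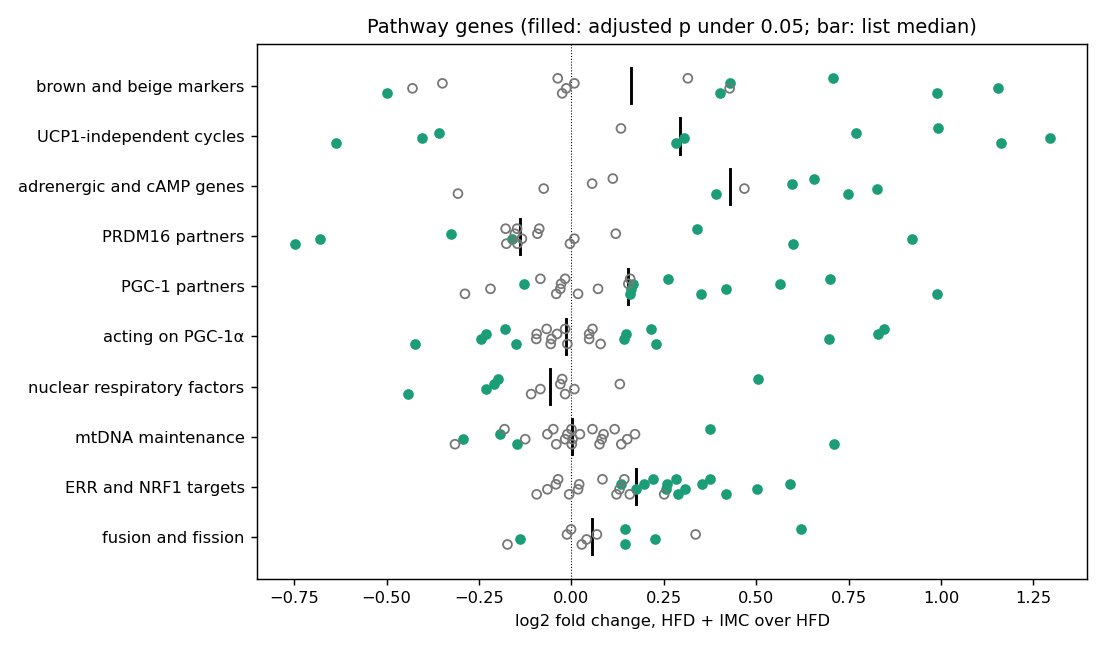
Log2 fold change (x axis, HFD + IMC over HFD) of each reported gene with values in 10 lists of genes around the regulators, filled where the adjusted p is under 0.05, with a black bar at each list's median. The ERR and NRF1 targets have filled points to the right of 0 only, whereas most other lists have filled points on both sides. The row of nuclear respiratory factors also holds other transcription regulators, to which its filled points belong.

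Of the 17 clock genes with values among 18, 3 were higher and 3 lower, with a median of 0.017. This was 35.3% called, below the 40.9% over all genes. Cry2, a repressor of the clock, rose by 0.61, Clock rose by 0.29, and Bhlhe41 fell by 0.435. Arntl, Nr1d1, Cry1 and Per2 did not pass, with log2 fold changes of −0.212, 0.185, 0.109 and −0.017. Without IMC-treated replicate 1 or 4 a single gene was lower. The REV-ERB and ROR receptors of the clock act on the ROR element searched for above.

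Within groups, the genes whose levels followed each regulator most closely were found as the highest Pearson r of log2 CPM centred on the group means over the 11 mice. All points share the libraries and the marker levels described above, so these values are descriptions. For Kcnk3 they were E130310I04Rik (r = 0.98), Cxx1b (r = 0.98) and Hcar2 (r = 0.97), the last a receptor on adipocytes for hydroxybutyrate. For Prdm16 they were Scel (r = 0.96), Cachd1 and Slc6a13. Carhsp1, Blcap and D10Jhu81e followed Cidea most closely, with r from 0.946 to 0.96. Those of Ucp2 were 2310033P09Rik, Frmd8 and Sertad1, with r from 0.94 to 0.96. The closest genes of the 4 regulators that did not pass were Ipo11 for Ppargc1b (r = 0.95), 2210016L21Rik for Esrra (r = 0.94), Ppm1j for Tfam (r = 0.92) and Apol10b for Nrf1 (r = 0.93).

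Among the regulators themselves, the closest pair was Prdm16 and Kcnk3 (r = 0.84), followed by Kcnk3 and Cidea (r = 0.79), over the same 11 mice. Esrra and Tfam came next at r = 0.76. The most negative pairs were Ucp2 and Nrf1 (r = −0.661), Cidea and Ucp2 (r = −0.577), Prdm16 and Ucp2 (r = −0.527) and Ppargc1b and Esrra (r = −0.481). The adipocyte marker mean had r = 0.85 with Cidea, 0.81 with Prdm16 and 0.80 with Kcnk3, and the macrophage marker mean had r = −0.885 with Cidea, −0.734 with Kcnk3, −0.730 with Prdm16 and 0.69 with Ucp2.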

How the data were processed

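RNA sequencing of gonadal WAT from 11 mice was analysed, grouped by the treatment in the sample labels, with replicate numbers that are names only. After trimming (Trim Galore), reads were aligned by the authors with STAR to the mm10 genome and counted against UCSC gene models, without transcripts below 1 CPM in all samples. The authors scaled libraries by the upper quartile in edgeR and deposited log2 CPM for 12787 genes. The deposited log2 fold change, mean log2 CPM, likelihood-ratio score, p-value and FDR of the authors' own comparison were not used. The library kit was directional, but the strand setting of the count is not given in the sources used here.

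Groups were compared by limma 3.58.1 in R 4.3.3 (lmFit, eBayes with a variance trend) on the deposited log2 CPM, with Benjamini-Hochberg adjustment over 12787 genes and a threshold of 0.05, and single genes by a two-sided exact permutation test (SciPy 1.17.1). The fold changes are on the log2 CPM scale, whose small added count understates changes of genes with few reads. Whole reads behind the values were recovered to give depth and to rerun the fit under other scalings, an added count of 2, limma voom and a minimum of 1 CPM in every mouse. Intervals from reads would cover counting error only. The fit was tested on simulated data in which a small part of the genes changed. That test does not cover data in which 40.9% of genes are called. Gene positions and lengths came from GENCODE annotation of GRCm38, and promoters from RefSeq, GRCm38.p6.

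The regulators and gene lists were chosen with earlier results of these data known. Named were all regulators, the 3 genes of smallest p in each list, the defining markers of brown adipocytes, and the 3 genes most like each regulator. Adrb3, Kcnk2, Epsti1, Rxrb, Fgf21, Foxp1, Plac8, Mterf2, Mff, Slc6a8, Gatm, Gamt, Gyk, Alpl, Ctbp1, Sp1, Nfe2l2 and Dguok, and the genes with values overlapping a regulator, were named after their values were seen. So were Adrb1, Nr4a1, Nr4a2, Nr4a3, Sik1, Atp2a2, Gabpa, Gabpb1, Gabpb2, Arntl, Nr1d1, Cry1 and Per2. Of the regulators with values, Prdm16, Ppargc1b, Esrra and Nrf1 are also overlapped by annotated genes without values, which are not named. In the list of adrenergic and cyclic AMP genes 1 gene is not reported here, so no median or count of lower genes is given for it. Retired symbols were matched to current ones.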

Additional observations from a re-analysis of the deposited data

Results flagged for a closer look

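In HFD mice, Ucp2 of replicate 2 was the lowest at 10.153 log2 CPM, apart from the next mouse at 10.370 by more than Dixon's test at 95% allows for 5 mice. Without that mouse the fall of Ucp2 with IMC remained called, and its log2 fold change lay between −0.42 and −0.32 whichever mouse was left out. Fgf21 of HFD replicate 1 was low by the same test, at −0.860 against −0.144 in the next mouse. Among IMC-treated mice, Ncoa1 of replicate 5 was high, at 6.259 against 6.144. Of 172 groups of values examined 3 stood out in this way, and chance alone gives about 1 in 20.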

How the results depend on the processing

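For the 8 regulators, no call and no direction changed under 18 alternatives, which were leaving out each of the 11 mice and 7 other settings (another added count, scaling by total reads or by the median of ratios, limma voom, no variance trend, a robust variance prior, and at least 1 CPM in every mouse). Leaving out 1 mouse, the log2 fold change ranged from 1.33 to 1.52 for Kcnk3, 0.69 to 0.90 for Prdm16, 0.95 to 1.35 for Cidea (highest adjusted p = 0.0333, limma) and −0.42 to −0.32 for Ucp2. Counts of list genes moved by more than 1.5 times as follows. Scaled by total reads, 1 gene of the uncoupling family and 1 potassium channel were higher, and 3 PGC-1 partners, 2 fusion and fission genes and 1 smooth muscle marker were lower. Scaled by the median of ratios or without the variance trend, 2 PRDM genes were higher, and without the trend 1 uncoupling family gene was. The cause was not tested. Leaving out each mouse in turn, higher genes ranged from 1 to 3 in the uncoupling family and 1 to 2 among potassium channels. They ranged from 1 to 2 among PRDM genes, 1 to 2 in the respiratory factor list and 2 to 5 in fusion and fission. For genes defining brown adipocytes the range was 1 to 2, and for endothelial markers 1 to 4. Lower genes ranged from 0 to 2 among PGC-1 partners, 0 to 1 in fusion and fission and 0 to 1 among PRDM genes. They ranged from 2 to 4 in the respiratory factor list, 0 to 1 among smooth muscle markers and 1 to 4 among clock genes. Among the reported adrenergic and cAMP genes the range was 0 to 1. Genes with few reads, such as Cidea, limit the depth of these statements. No paired analysis was possible, because the groups are different mice and the replicate numbers are names only.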
